A study of Homo sapiens with 24 samples.

Results

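Resistance to cisplatin, the platinum drug at the centre of bladder cancer chemotherapy, is often discussed through a small set of genes that move, bind or repair the drug and its damage. Transcript levels of 10 such genes were read from a table of 35993 gene symbols: the efflux pumps ABCB1, ABCC1, ABCC2, ABCC3 and ABCG2, the copper transporters ATP7A, ATP7B and SLC31A1, the glutathione transferase GSTP1 and the repair gene ERCC1. The genes were picked by name for these roles, with earlier results of these data known, and all 10 had a row in the table. RNA sequencing covered 24 libraries from J82, a line of a poorly differentiated urothelial carcinoma, and RT-112, a line of a better differentiated one. For both there were 4 groups of 3 biological replicates: the parental cells, which served as control, a CD44 Low line, a CD44 High line and a CD44v6 line.

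CD44 is a cell-surface receptor for hyaluronan, and CD44v6 is a splice form of it that carries a variant exon. Per the labels, the CD44 Low cells have low amounts of the receptor, the CD44 High cells high amounts, and the CD44v6 cells high amounts of the variant form. The labels give no drug treatment, do not say how the 6 derived lines were made, and do not say whether each is 1 clone. The question here was how levels of these drug-handling genes differed between the derived lines and the parental cells, between the derived lines, and between J82 and RT-112.

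Cisplatin enters cells in part through the copper importer encoded by SLC31A1 (CTR1), and the copper-exporting ATPases encoded by ATP7A and ATP7B can sequester it or carry it out. Inside the cell it reacts with glutathione, a reaction class that GSTP1 serves, and glutathione conjugates are substrates of the ABCC pumps. ABCB1 (P-glycoprotein) and ABCG2 (BCRP) export many other anticancer drugs and are not regarded as main exporters of cisplatin. ERCC1 pairs with ERCC4 (XPF) in the nuclease that cuts out platinum adducts during nucleotide excision repair.

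Libraries held 16752825 to 24419670 counts. Levels are CPM values, in which counts are divided by the TMM-scaled library size, and changes are log2 fold changes with their standard error (SE). P-values come from the edgeR quasi-likelihood test, adjusted over all genes tested (Benjamini-Hochberg), and a gene is said to have risen or fallen only at an adjusted p under 0.05. CD44 itself followed the labels: it stood at 444.7 ± 46.5 CPM (SD, n = 3) in J82 parental cells, 279 ± 27.9 in CD44 Low, 727 ± 32.04 in CD44 High and 799.7 ± 242 in CD44v6. The RT-112 means were 317 ± 27.2, 141 ± 18.2, 420.2 ± 70.02 and 448 ± 69.02 CPM. These gene-level counts do not separate the v6 form. RT-112 had counts for 15 of 16 urothelial and epithelial markers, all but UPK3A, and in its parental cells all 15 had a mean of at least 1 CPM. J82 parental cells had counts for 11 of the 16, and 8 had a mean of at least 1 CPM. KRT8 was at 4631 CPM, KRT7 at 1994 and KRT18 at 1734 in J82 parental cells. KRT5, KRT20, UPK1B, UPK2 and UPK3A were at 0 there, TP63 at 0.0593 CPM and GATA3 at 0.234 CPM. Of 4 mesenchymal markers, VIM, ZEB1 and CDH2 were at 368, 81.6 and 288 CPM in J82 parental cells and at 1.88, 1.02 and 6.98 in RT-112, while FN1 was at 327 and 321. Of 4 immune markers, 1 was detected in the parental cells, CD68, at 166 CPM in J82 and 11.7 in RT-112; PTPRC and CD3E were at 0. Of 4 stromal markers, LUM was at 13.9 CPM in J82 and 175 in RT-112, PDGFRB at 8.23 and 0, COL1A1 at 0.963 and 2.73, and DCN at 0 in both. Small nuclear RNAs separated some libraries: they summed to 672 to 998 CPM in replicates 1 and 2 of the derived J82 lines and to 122 to 191 CPM in replicate 3. In RT-112 they summed to 611 to 713 CPM in the parental libraries and to 98.7 to 386 in the derived lines.

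Parental J82 and RT-112 cells differed in most of these genes. Per kilobase of exon, by group means, GSTP1 was the most abundant of the 10 in all 8 groups, at 106 CPM per kb in J82 parental cells and 371 in RT-112 parental cells. SLC31A1 followed at 18 and 9.21 CPM per kb, then ERCC1 at 16 and 7.09 and ABCC1 at 7.5 and 6.26. The lower part of the order was not shared: ABCB1 was in place 5 in J82 with 5.75 CPM per kb and in place 10 in RT-112 with 0.0218. ABCC3 and ABCG2 stood at 5.76 and 4.99 CPM per kb in RT-112 and at 1.98 and 2.22 in J82. Exon lengths came from GENCODE 29, which need not be the annotation behind the counts.

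**Figure D1:**
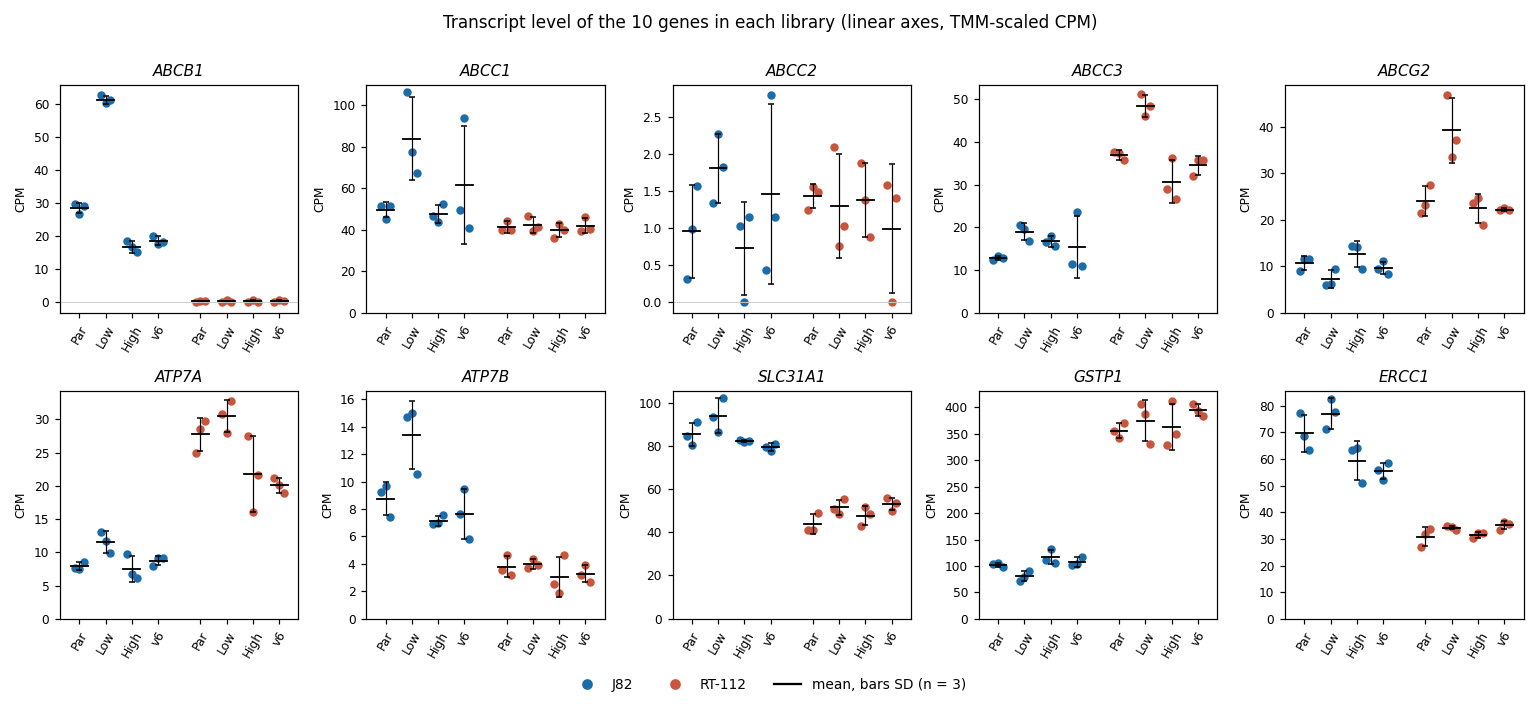
Level of each of the 10 genes in CPM (linear axes, 1 panel per gene) in parental (Par), CD44 Low, CD44 High and CD44v6 cells of J82 (blue) and RT-112 (red); points are libraries, bars the mean and SD of 3. ABCB1 was at 60.2 to 62.7 CPM in J82 CD44 Low, at 15.04 to 29.6 in the other J82 libraries and under 1 in RT-112.

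Between the parental lines, 8 of the 10 genes differed, 4 higher in J82 and 4 higher in RT-112, where 62% of the 17438 genes tested differed. ABCB1, ATP7B, ERCC1 and SLC31A1 were higher in J82, with log2 differences of 7.88 (SE 0.629), 1.2 (SE 0.253), 1.18 (SE 0.103) and 0.96 (SE 0.0927). ATP7A, GSTP1, ABCC3 and ABCG2 were higher in RT-112, and J82 against RT-112 gave log2 differences of -1.81 (SE 0.178), -1.80 (SE 0.108), -1.54 (SE 0.195) and -1.17 (SE 0.188). The edgeR adjusted p of these 8 ran from 2.76e-12 for GSTP1 to 0.000293 for ATP7B. The 2 copper-exporting ATPases thus differed in opposite directions between the lines. ABCC1 (0.26, 95% interval -0.17 to 0.69, adjusted p = 0.284) and ABCC2 (-0.60, interval -2.41 to 1.22, adjusted p = 0.576) did not pass the test. The parental groups did not overlap for 9 of the 10 genes, against 73.9% of all genes.

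**Figure D2:**
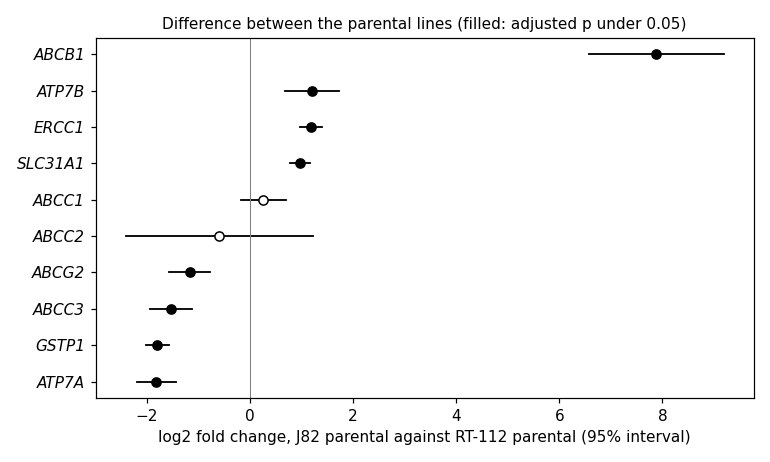
Log2 fold change of J82 parental against RT-112 parental cells for the 10 genes (points) with 95% intervals (lines), from 3 libraries each. Filled points have an adjusted p under 0.05; ABCB1 at 7.88 lies far to the right, 4 genes lie between -1.81 and -1.17, and the intervals of ABCC1 and ABCC2 cross 0.

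Within the lines, most called changes set the CD44 Low cells apart from the CD44 High and CD44v6 cells. In J82 CD44 High against CD44 Low, 7 of 10 genes passed the test, ABCG2 and GSTP1 rising and ABCB1, ABCC1, ATP7A, ATP7B and ERCC1 falling, where 15.7% of all genes tested did. J82 CD44v6 against CD44 Low gave 4 of 10 (ABCB1, ATP7B and ERCC1 lower, GSTP1 higher) against 9.58% of all genes. In RT-112, where 9 of the 10 genes had enough counts to be tested, CD44 High against CD44 Low gave 2 (ABCC3 and ABCG2, both lower) and CD44v6 against CD44 Low gave 3 (ABCC3, ABCG2 and ATP7A, all lower), each against 16% of all genes. The median log2 change of the 10 genes in J82 CD44 High against CD44 Low was -0.49, and that of all genes was -0.02. Both contrasts of a line share the CD44 Low libraries, so they are not independent of each other. Because the 10 genes were chosen with earlier results of these data known, their counts beside the shares of all genes are descriptions. The libraries of CD44 High and CD44 Low did not overlap for 8 genes in J82 (34.9% of all genes) and 4 in RT-112 (30.4%). For CD44v6 beside CD44 Low these numbers were 6 in J82 (23.4%) and 3 in RT-112 (37.1%).

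Against the parental cells fewer genes moved. ABCB1 was the one gene called in J82 CD44 Low (higher), CD44 High (lower) and CD44v6 (lower) against parental, comparisons that share the parental libraries and in which 5.34%, 2.94% and 2.6% of all genes passed. In RT-112, ABCG2 was called in CD44 Low against parental (3.2% of all genes), and none of the 9 in CD44 High (0.511%) or CD44v6 (0.614%) against parental. At an unadjusted p under 0.05 those last 2 comparisons had 1 and 2 of the 9 genes, and DESeq2 called none in them. The groups did not overlap with the parental libraries for 6, 3 and 2 genes in J82 CD44 Low, CD44 High and CD44v6 (33.1%, 29.6% and 27.3% of all genes) and for 2, 0 and 3 in RT-112 (27.2%, 16.9% and 26.9%). Between CD44v6 and CD44 High cells edgeR called 0 of the genes and 0% of all genes in both lines, with 0 of the 10 and 0 of the 9 at an unadjusted p under 0.05 beside 1536 and 665 of all genes. DESeq2 called 74 of all genes there in J82 and 2 in RT-112, none of them among the 10. In that contrast 1 gene did not overlap in each line (12.1% and 7.54% of all genes). Over the 6 comparisons of each line, ABCC2 and SLC31A1 were called in none. The difference between the lines was tested as well: 1 gene passed for CD44 Low against parental (1.06% of all genes), 2 for CD44 High with CD44 Low as base (10.7%) and 2 for CD44v6 with that base (7.52%). With the parental cells as base, edgeR called 0 of 10 for CD44 High (0.241%) and for CD44v6 (0.138%), with 1 and 3 at an unadjusted p under 0.05. DESeq2 called none and 1 of the 10 there, the latter being ERCC1.

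**Figure D3:**
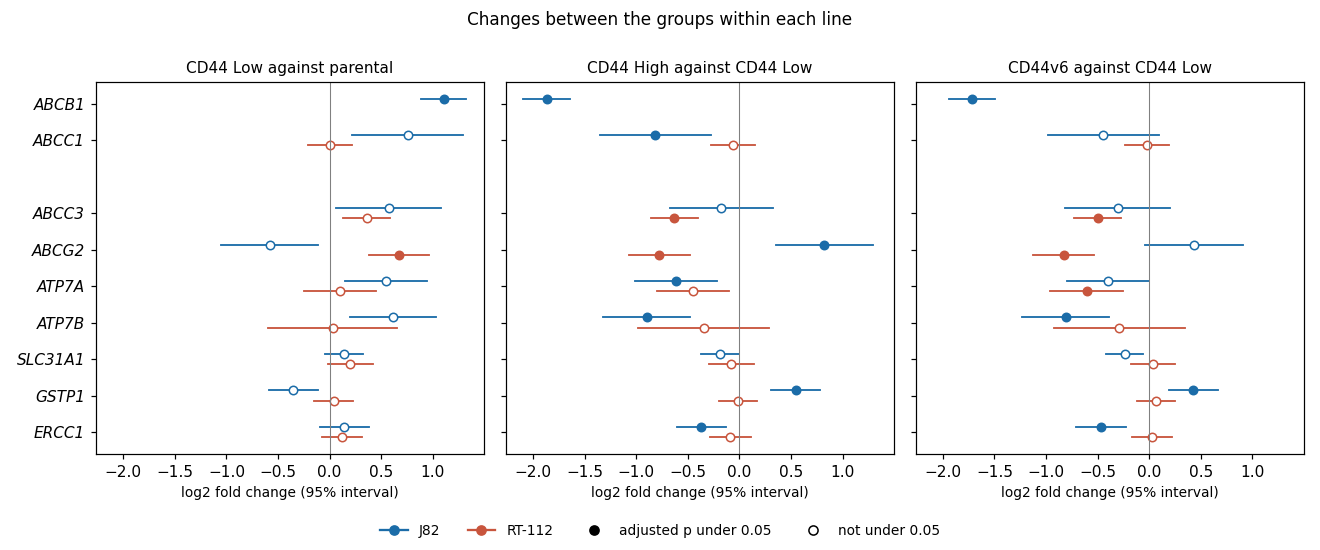
Log2 fold change (points) and 95% interval (lines) in CD44 Low against parental cells, in CD44 High against CD44 Low cells, and in CD44v6 against CD44 Low cells, for J82 (blue) and RT-112 (red); filled points have an adjusted p under 0.05. ABCC2, with 0 to 49 counts per library, is left out, and ABCB1 was tested in J82 only. ABCB1 lies farthest from 0 in J82, and the ABCG2 points of the lines lie on opposite sides of 0 in all 3 panels, the J82 point being filled in 1 of them.

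ABCB1, the P-glycoprotein pump, had the largest called changes of the 10 genes within a line. The J82 parental libraries held 29.6, 26.6 and 29.1 CPM and the CD44 Low libraries 62.7, 60.2 and 61.1. The CD44 High libraries held 18.6, 16.5 and 15.04 CPM and the CD44v6 libraries 20.1, 17.4 and 18.2. The CD44 Low group lay above the parental group and both other groups below it, with no overlap between these levels. ABCB1 rose 2.15-fold in CD44 Low against parental (log2 1.11, SE 0.101, edgeR adjusted p = 0.000101). It fell by 0.76 in CD44 High (SE 0.103, adjusted p = 0.00216) and by 0.61 in CD44v6 (SE 0.103, adjusted p = 0.011) against parental. Against CD44 Low the log2 changes were -1.87 in CD44 High (SE 0.104, adjusted p = 2.89e-07) and -1.72 in CD44v6 (SE 0.104, adjusted p = 9.16e-07). In bulk RNA, fewer expressing cells and less RNA per cell cannot be told apart.

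RT-112 had almost no ABCB1. Counts were 0, 3 and 4 in the parental libraries, 0, 9 and 0 in CD44 Low, 0, 11 and 0 in CD44 High and 0, 12 and 3 in CD44v6, and a library with no count may hold up to 0.129 to 0.176 CPM (3 counts, counting error only). No change within RT-112 could be tested at these counts, and the log2 difference between the parental lines rests on 7 counts on the RT-112 side. In a fit on all 24 libraries the J82 log2 changes against parental were 1.11, -0.77 and -0.62 for CD44 Low, CD44 High and CD44v6 and did not pass (edgeR adjusted p = 0.0658, 0.306 and 0.351). With replicates 1 and 2 alone the latter 2 missed the threshold as well (0.0531 and 0.0711), as did CD44v6 without J82 parental replicate 1 (-0.59, adjusted p = 0.0897). The changes were not shown to differ between the lines, the difference for CD44v6 with CD44 Low as base being -2.57 (SE 1.17, adjusted p = 0.196), and -7.01 (0.0441) without RT-112 CD44 Low replicate 2, which held all 9 counts of its group. The neighbouring gene RUNDC3B, whose span overlaps ABCB1 in GENCODE 29, had group means of 10.8 to 13.7 CPM in J82 and 0.473 to 0.746 in RT-112. Whether counting used strand is not given in the sources used here, so reads in the overlap cannot be assigned.

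The region before the ABCB1 start is shown with those of ATP7B and ERCC1, which fell together with it in both J82 CD44 High and CD44v6 against CD44 Low, and with that of SLC31A1, which was called in no comparison within a line. Each stretch is 30 bases from RefSeq on GRCh38.p14, 1 match per gene, with a CCAAT box (CCAAT, or ATTGG for the other strand) in capitals, written 5′ to 3′ on the gene's strand.
ABCB1, minus strand, chr7:87600946-87600975: gtggtgaggctgATTGGctgggcaggaaca
ATP7B, minus strand, chr13:52012256-52012285: acggccttccagCCAATagaatatgccgag
ERCC1, minus strand, chr19:45423610-45423639: gtggggacggagCCAATagaatccggtggg
SLC31A1, plus strand, chr9:113221496-113221525: ccccttgcagggATTGGtcggtaatgctag
These matches lie 79, 141, 99 and 36 bases before an annotated start. Of 35116 windows of 250 bases before a start, 32% hold CCAAT or ATTGG, and 5 of the 17 windows of 8 members do. GC box letters (GGGCGG or CCGCCC) are in 42.6% of all windows and in 7 of the 17. ABCC1 and ABCC3 had no window in the table. The box was present both in genes that fell and in one that was called in neither comparison, and a match describes letters, not binding.

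ABCC1 (MRP1), a pump for glutathione conjugates, spread widely in J82 and little in RT-112. J82 parental libraries held 51.5, 45.3 and 51.6 CPM and CD44 Low libraries 106, 77.6 and 67.5. In CD44 High they held 46.4, 43.7 and 52.1 CPM, all below CD44 Low, while the CD44v6 libraries, at 49.7, 93.9 and 40.6, overlapped every other group. ABCC1 fell by 0.82 on the log2 scale in J82 CD44 High relative to CD44 Low (SE 0.25, edgeR adjusted p = 0.0437). That call was lost without any 1 of CD44 Low replicates 1 and 2 and CD44 High replicates 1, 2 and 3 (adjusted p = 0.0715 to 0.187), and with no filter on low counts (0.0614). It was lost as well with the replicate number as a block (0.0532). CD44v6 against CD44 Low gave -0.45 (SE 0.249, adjusted p = 0.312), and -0.88 (adjusted p = 0.00645) without CD44v6 replicate 2, the library at 93.9 CPM. CD44 Low against parental gave 0.76 (SE 0.25, adjusted p = 0.102), which passed in DESeq2 (0.0249), on the 2 groups alone (0.0173) and in the fit on all 24 libraries (0.0304). In RT-112 the 12 libraries lay between 36.04 and 46.6 CPM, and no comparison passed the test. The lines were not shown to differ: J82 minus RT-112 was -0.73 for CD44 High with CD44 Low as base (SE 0.292, adjusted p = 0.121; 0.0411 with J82 replicates 1 and 2 only), and -0.44 for CD44v6 (0.415; -0.81 and 0.0114 without J82 CD44v6 replicate 2).

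ABCC2 (MRP2), which exports conjugates at the bile canaliculus and the kidney tubule, was barely expressed. Its counts ran from 0 to 49 over the 24 libraries. Group means lay between 0.727 and 1.81 CPM. The second CD44 High library of J82 and the second CD44v6 library of RT-112 were listed at 0 beside 22 to 35 counts in the other libraries of their groups. With SEs of 0.71 to 0.905 in the comparisons with parental cells, only changes of several fold could have been detected.

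ABCC3 (MRP3), a conjugate pump of the basolateral membrane, was called in 2 RT-112 comparisons and in no J82 comparison, and in RT-112 the CD44 Low cells stood highest. RT-112 parental libraries held 37.7, 37.5 and 35.7 CPM and CD44 Low libraries 51.2, 46.1 and 48.3. The CD44 High libraries were at 29.04, 36.3 and 26.7 CPM and CD44v6 libraries 31.97, 35.7 and 35.8. All 3 CD44 Low libraries lay above the other 9. ABCC3 fell by 0.63 in CD44 High (SE 0.105, edgeR adjusted p = 0.00226) and by 0.50 in CD44v6 (SE 0.105, adjusted p = 0.00853) against CD44 Low, the latter with an adjusted p of 0.0855 in the fit on all 24 libraries. CD44 Low against parental gave 0.36 (SE 0.105, adjusted p = 0.0871) and was called by DESeq2 (adjusted p = 0.0324) and on the 2 groups alone (0.0309).

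In J82, ABCC3 lay lower, at 12.2 to 13.2 CPM in parental, 16.7 to 20.5 in CD44 Low and 15.6 to 18.03 in CD44 High cells, and passed no test. On the 2 groups alone, CD44 Low (0.58, edgeR adjusted p = 0.018) and CD44 High (0.40, 0.0487) passed against parental. CD44v6 libraries held 11.3, 23.7 and 10.97 CPM. The high value was again replicate 2, as for ABCC1, and without it CD44v6 against CD44 Low was -0.75 (edgeR adjusted p = 0.00282). No ABCC3 difference between the lines passed: J82 minus RT-112 was 0.48 for CD44 High with CD44 Low as base (95% interval -0.07 to 1.04, adjusted p = 0.281) and 0.66 with parental as base (interval 0.10 to 1.23, adjusted p = 0.422).

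ABCG2 (BCRP), a half-transporter for topoisomerase inhibitors and porphyrins that also marks side-population cells, was highest in RT-112 CD44 Low and had its lowest mean in J82 CD44 Low. RT-112 parental libraries held 21.4, 23.1 and 27.5 CPM and CD44 Low libraries 46.9, 33.5 and 37.3. Those of CD44 High were at 23.7, 24.7 and 18.95 CPM and CD44v6 libraries 22.01, 22.5 and 22. CD44 Low lay above all other RT-112 groups without overlap. ABCG2 rose by 0.67 in CD44 Low against parental (SE 0.136, edgeR adjusted p = 0.0199). It fell by 0.78 in CD44 High (SE 0.137, adjusted p = 0.00298) and by 0.83 in CD44v6 (SE 0.137, adjusted p = 0.00237) against CD44 Low. The rise against parental was lost without RT-112 parental replicate 1 or 2 or CD44 Low replicate 1 (adjusted p = 0.0917 to 0.0959). The parental libraries also had the higher small nuclear RNA given above, whose part in this result was not tested.

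In J82, ABCG2 was at 9.04, 11.5 and 11.6 CPM in parental cells and at 5.96, 6.11 and 9.39 in CD44 Low cells. In CD44 High they were at 14.3, 14.1 and 9.296 CPM and in CD44v6 at 9.46, 11.01 and 8.39. The CD44 Low and CD44 High groups overlapped through replicate 3 of each, at 9.39 and 9.296 CPM. By the test over all 3 replicates ABCG2 rose in CD44 High relative to CD44 Low, by 0.82 (SE 0.218, edgeR adjusted p = 0.0225). The call was lost without CD44 Low replicate 1 or 2 or CD44 High replicate 1 or 2 (adjusted p = 0.0803 to 0.0945), and in a fit on these 2 groups alone (0.0503). Small nuclear RNAs were at 191 and 181 CPM in the overlapping pair and at 738 to 998 in the other 4 libraries. With replicates 1 and 2 alone the change was 1.25 (adjusted p = 0.0068), and the part of the replicate in it was not tested. CD44 Low against parental gave -0.58 (SE 0.219, adjusted p = 0.143), and -0.84 (0.0468) without CD44 Low replicate 3.

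CD44v6 against CD44 Low gave 0.43 in J82 (95% interval -0.04 to 0.91, edgeR adjusted p = 0.265), so 1 of the 3 J82 changes set beside those of RT-112 passed. The difference between the changes of the lines was tested on all 24 libraries. The J82 change minus the RT-112 change was -1.28 for CD44 Low against parental (SE 0.267, edgeR adjusted p = 0.0164). With CD44 Low as base it was 1.63 for CD44 High (SE 0.266, adjusted p = 0.000402) and 1.25 for CD44v6 (SE 0.268, adjusted p = 0.00581). Leaving out single libraries kept the last 2 calls in 12 of 12 fits each. The first was lost in 7 of 12, without J82 parental replicate 2 or 3, J82 CD44 Low replicate 1 or 2, RT-112 parental replicate 1 or 2, or RT-112 CD44 Low replicate 1 (adjusted p = 0.0523 to 0.0652). These 3 contrasts share the CD44 Low libraries.

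Among the copper and platinum transporters, the importer SLC31A1 was called in no comparison within a line. J82 libraries held 80.2 to 91.1 CPM in parental, 86.3 to 102 in CD44 Low, 81.9 to 82.5 in CD44 High and 77.5 to 81.1 in CD44v6 cells. The RT-112 groups held 41.0 to 49.0, 48.3 to 55.5, 42.9 to 51.8 and 49.98 to 55.7 CPM. All J82 libraries lay above all RT-112 libraries. The changes farthest from 0 within a line were alike in size and opposite in sign. J82 CD44v6 against CD44 Low gave -0.24 (95% interval -0.42 to -0.06, edgeR adjusted p = 0.101), with non-overlapping groups, as 23.4% of all genes had there. RT-112 CD44v6 against parental gave 0.24 (interval 0.02 to 0.45, adjusted p = 0.275), also without overlap, as 26.9% of all genes had. CDC26, whose span overlaps SLC31A1 in GENCODE 29, had group means of 37.2 to 49.2 CPM in J82 and 79.7 to 91.9 in RT-112.

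ATP7B, the copper exporter defective in Wilson disease, was highest in J82 CD44 Low, as ABCB1 was. Parental libraries held 9.21, 9.64 and 7.39 CPM, CD44 Low libraries 14.7, 14.96 and 10.5, CD44 High libraries 6.89, 7.01 and 7.57, and CD44v6 libraries 7.62, 9.46 and 5.81. All CD44 Low libraries lay above the other 9. ATP7B fell by 0.90 in CD44 High (SE 0.195, edgeR adjusted p = 0.00751) and by 0.81 in CD44v6 (SE 0.195, adjusted p = 0.0195) against CD44 Low. The CD44v6 change missed the threshold without CD44 Low replicate 1 or 2 or CD44v6 replicate 1 or 3 (adjusted p = 0.0596 to 0.0755), with replicates 1 and 2 alone (0.0574) and in the fit on these 2 groups (0.111). The CD44 Low library at 10.5 CPM was replicate 3, which also had the lower small nuclear RNA; the part of this in the result was not tested.

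CD44 Low against parental gave 0.61 for ATP7B in J82 (SE 0.194, edgeR adjusted p = 0.0884). It passed in DESeq2 (0.0434), with the replicate block (0.0493) and without CD44 Low replicate 3 (0.047). RT-112 libraries held 33 to 101 counts, with group means of 3.02 to 3.99 CPM, and passed no test with all libraries. Without RT-112 CD44 High replicate 3, CD44 High against CD44 Low was -0.82 (adjusted p = 0.0441).

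ATP7A, the exporter defective in Menkes disease, was lower in J82 than in RT-112. J82 parental libraries held 7.57, 7.51 and 8.59 CPM, CD44 Low libraries 13.1, 11.7 and 9.91, CD44 High libraries 9.77, 6.67 and 6.06, and CD44v6 libraries 8.003, 9.11 and 9.103. CD44 Low was the highest group and overlapped none of the others. ATP7A fell by 0.62 in CD44 High relative to CD44 Low (SE 0.185, edgeR adjusted p = 0.0398). The call was lost without CD44 Low replicate 1 or 2 or CD44 High replicate 2 or 3 (adjusted p = 0.0836 to 0.147), without a filter (0.0675), on the 2 groups alone (0.0907) and with replicates 1 and 2 only (0.152).

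RT-112 parental libraries held 24.9, 28.6 and 29.7 CPM of ATP7A and CD44 Low libraries 30.8, 27.9 and 32.8. The CD44 High libraries held 27.5, 16.1 and 21.7 CPM and CD44v6 libraries 21.2, 20.2 and 18.9. The CD44v6 group lay below the parental and CD44 Low groups. ATP7A fell by 0.61 in CD44v6 against CD44 Low (SE 0.163, edgeR adjusted p = 0.0256), a call lost without CD44 Low replicate 1 or 3 or CD44v6 replicate 2 or 3 (0.0654 to 0.0957). CD44 High against CD44 Low gave -0.45 (SE 0.163, adjusted p = 0.0789), and -0.67 (adjusted p = 0.0173) without CD44 High replicate 1; DESeq2 called it on all libraries (-0.46, 0.0407). CD44v6 against parental gave -0.51 (SE 0.163, adjusted p = 0.166), and passed on the 2 groups alone (0.0144). No ATP7A difference between the lines passed: over the 5 contrasts J82 minus RT-112 ran from -0.13 for CD44 High with CD44 Low as base (95% interval -0.64 to 0.38) to 0.61 for CD44v6 with parental as base (interval 0.10 to 1.12, adjusted p = 0.261). PGAM4, a gene inside the span of ATP7A in GENCODE 29, had group means of 6.95 to 9.19 CPM in J82 and 12.2 to 13.7 in RT-112.

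GSTP1, the pi-class glutathione transferase, rose in J82 CD44 High and CD44v6 cells relative to CD44 Low, where ABCB1 fell, and passed no test within RT-112. J82 parental libraries held 104, 106 and 97.5 CPM and CD44 Low libraries 71.6, 78.9 and 90.2. In CD44 High they held 112, 132 and 106 CPM and in CD44v6 102, 103 and 118. CD44 Low was the lowest group and overlapped none of the others. GSTP1 rose by 0.54 in CD44 High (SE 0.109, edgeR adjusted p = 0.00472) and by 0.43 in CD44v6 (SE 0.109, adjusted p = 0.0267) against CD44 Low. The second call was lost without CD44 Low replicate 1 or 2 or CD44v6 replicate 3 (adjusted p = 0.0766 to 0.0937), with replicates 1 and 2 alone (0.0628) and on the 2 groups alone (0.114). CD44 Low against parental gave -0.35 (SE 0.109, adjusted p = 0.0822), which passed in DESeq2 (0.0332), on the 2 groups alone (0.0494) and without CD44 Low replicate 3 (0.0407).

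In RT-112, GSTP1 lay between 329 and 412 CPM in all 12 libraries, and CD44 High against CD44 Low gave -0.01 (95% interval -0.20 to 0.17, edgeR adjusted p = 0.939). The J82 change in that comparison exceeded the RT-112 change by 0.58 (SE 0.148, adjusted p = 0.0135), a call kept in 12 of 12 fits that each left out 1 library. For CD44v6 the difference was 0.35 (SE 0.148, adjusted p = 0.164), and 0.51 (0.0397) without J82 CD44 Low replicate 3. The GSTP1 promoter is shown because few promoters hold the AP-1 letters (TGACTCA, or TGAGTCA for the other strand) that it carries. From RefSeq on GRCh38.p14, 66 bases before the start, with the motif in capitals:
GSTP1, plus strand, chr11:67583735-67583764: ggccggcgccgTGACTCAgcactggggcgg
AP-1 letters occur in 4.2% of all windows of 250 bases and in 2 of the 17 windows of the members, the other in ATP7B.

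ERCC1, the excision repair nuclease subunit, had the smallest called change of the 10 genes within a line. J82 parental libraries held 77.1, 68.7 and 63.4 CPM and CD44 Low libraries 71.1, 82.5 and 77.6. The CD44 High libraries held 63.4, 64.1 and 50.9 CPM and CD44v6 libraries 56.0, 52.2 and 58.4. Both CD44 High and CD44v6 lay below CD44 Low without overlap. ERCC1 fell by 0.37 in CD44 High (SE 0.11, edgeR adjusted p = 0.0396) and by 0.47 in CD44v6 (SE 0.111, adjusted p = 0.0179) against CD44 Low. The CD44 High call was lost in all 6 fits that left out 1 library of the 2 groups (adjusted p = 0.0515 to 0.135), without a filter (0.0671), on the 2 groups alone (0.0566) and with replicates 1 and 2 only (0.212). The CD44v6 call was lost without CD44 Low replicate 2 or 3 or CD44v6 replicate 1 (0.0515 to 0.0758), on the 2 groups alone (0.0512) and with replicates 1 and 2 only (0.0583).

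In RT-112, ERCC1 lay between 26.9 and 36.2 CPM and passed no test. The lines differed for CD44v6 with CD44 Low as base, J82 minus RT-112 being -0.51 (SE 0.144, edgeR adjusted p = 0.0341). That call held in 3 of 12 fits that left out 1 library, with adjusted p up to 0.0973, and was lost without a filter (0.104). The 9 libraries whose removal ended it were J82 CD44 Low replicates 2 and 3, J82 CD44v6 replicates 1 and 2, RT-112 CD44 Low replicates 1, 2 and 3 and RT-112 CD44v6 replicates 2 and 3. CD3EAP and FOSB overlap the span of ERCC1 in GENCODE 29. FOSB had a mean of 14 CPM in J82 parental cells and of 72.6 to 102 in the derived J82 lines, and CD3EAP had group means of 152 to 203 CPM in J82. Their share in the ERCC1 counts was not tested.

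The other genes of these pathways were read from 5 lists of 66 genes: further ABC pumps with the vault protein MVP, organic cation transporters and volume-regulated anion channels, copper chaperones and metallothioneins, glutathione transferases, and nucleotide excision repair genes. These lists, too, were chosen with earlier results of these data known. Of the 66 genes, 57 were tested in J82 and 51 in RT-112. In J82 CD44 High against CD44 Low, 9 of 57 were called, near the 15.7% of all genes: 7 rose and 2 fell, GSTM3 among the latter. In J82 CD44v6 it was 9 of 57 beside 9.58% of all genes: 5 rose (SLC22A3, LRRC8C, GSTO1, ERCC2 and DDB2) and 4 fell, GSTM3 and MGST1 among them. In RT-112, 10 of 51 were called in CD44 High and 8 of 51 in CD44v6, each beside 16% of all genes. In RT-112 CD44 High, 4 rose (ABCC4, ABCC10, MT2A and ERCC6) and 6 fell relative to CD44 Low. In RT-112 CD44v6 the same 4 and GTF2H3 rose and 3 fell (MVP, CP and MGST1). Median log2 changes over the tested list genes lay between -0.04 and 0.06 in these 4 comparisons, beside -0.02 to 0.02 over all genes. Against parental, GSTO1, ERCC2 and DDB2 fell in J82 CD44 Low, GSTM3 fell in J82 CD44 High and DDB2 rose in J82 CD44v6. In RT-112 CD44 Low, MGST1 rose and MT2A fell. Without 1 library, GSTM3 (without parental replicate 1, 2 or 3 or CD44 High replicate 1 or 3) reached an edgeR adjusted p of 0.228 and MGST1 and MT2A (each without parental replicate 1, 2 or 3 or CD44 Low replicate 1 or 2) 0.204 and 0.149. DDB2 missed the threshold in J82 CD44 Low without parental replicate 1 or 2 or CD44 Low replicate 1 or 2 (up to 0.0903), and in CD44v6 without parental replicate 1, 2 or 3 (up to 0.102). No list gene was called in RT-112 CD44 High or CD44v6 against parental.

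None of the 8 other ABC pump and vault genes was called in J82. In RT-112, ABCC4 (MRP4, a nucleotide and drug exporter) and ABCC10 rose and MVP fell in both CD44 High (0.76, 0.55 and -1.30) and CD44v6 (0.60, 0.53 and -1.10) against CD44 Low. In J82, SLC22A3, an organic cation transporter, and LRRC8C, a subunit of the volume-regulated anion channel, rose in CD44 High (0.77 and 0.64) and CD44v6 (0.78 and 0.88) against CD44 Low. No cation transporter or anion channel gene of the lists was called within RT-112. Apart from MT1M, GSTM3, MT2A, CP, MGST1 and DDB2, the list genes were named after their values were seen.

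Metallothioneins, small cysteine-rich proteins that bind copper, zinc and platinum, included the list gene with the largest increase in RT-112, MT2A. Its counts were 0 to 27 in the RT-112 CD44 Low libraries, 102 to 282 in CD44 High and 112 to 256 in CD44v6. The CD44 Low group overlapped neither. The log2 changes were 4.01 (SE 0.707, edgeR adjusted p = 0.00299) and 3.59 (SE 0.708, adjusted p = 0.00624). CP, the copper-carrying ferroxidase ceruloplasmin, fell in the same comparisons, by 1.65 (SE 0.409, adjusted p = 0.0168) and by 2.61 (SE 0.434, adjusted p = 0.00253). CP lay at 4.07, 4.19 and 10.8 CPM in CD44 Low, and without the library at 10.8, replicate 1, the CD44 High change was -1.03 (adjusted p = 0.0881); the fit on all 24 libraries gave -1.68 (0.167). In J82, MT1M rose by 1.03 in CD44 High relative to CD44 Low (SE 0.245, edgeR adjusted p = 0.0125), from 43 to 50 counts to 90 to 144. That call was lost without CD44 High replicate 1 (0.0536) and with J82 replicates 1 and 2 only (0.0934).

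Among glutathione transferases, MGST1, the microsomal enzyme, fell in CD44v6 against CD44 Low in both lines. Its levels in J82 were 181 to 210 CPM in CD44 Low and 121 to 151 in CD44v6, and in RT-112 226 to 290 and 177 to 207. The groups did not overlap in either line. The log2 changes were -0.51 (SE 0.101, edgeR adjusted p = 0.00645) and -0.44 (SE 0.0904, adjusted p = 0.00728); on the 2 groups alone and with replicates 1 and 2 alone the J82 change missed the threshold (0.0593 and 0.0583). MGST1 also fell in RT-112 CD44 High relative to CD44 Low, by 0.51 (SE 0.0905, edgeR adjusted p = 0.00322). In J82 that comparison gave -0.28 for MGST1 (SE 0.101, adjusted p = 0.0745), which passed in DESeq2 (0.0353). In J82, GSTM3 fell by 0.72 in CD44 High relative to CD44 Low (SE 0.119, edgeR adjusted p = 0.00132). DDB2, which recognises damaged DNA for excision repair, rose by 1.05 in J82 CD44v6 (SE 0.1, adjusted p = 2.25e-05) against CD44 Low, from 11.6 to 12.4 CPM to 23.4 to 25.2. ERCC1 thus fell in the comparison in which DDB2 rose.

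The genes whose levels followed a member most closely were sought among 9602 or 9603 genes by Pearson correlation of log2 CPM centred on each line over 24 libraries, for ABCB1 (5 calls within lines), ABCG2 (4) and ATP7B (2). ATP7B was taken from the 5 genes with 2 calls for its larger log2 change. For ABCB1 they were EHMT1 (r = 0.795) and CYTH3 (r = 0.782), for ABCG2 C7orf25 (r = 0.838) and ASL (r = 0.823), and for ATP7B ZNF561 (r = 0.832) and MON2 (r = 0.83). In J82 alone, ABCB1 gave r = 0.711 with EHMT1 and 0.915 with CYTH3, the reverse order. In RT-112 alone it gave 0.86 and 0.85. ABCB1 was too low there to be tested, so these 2 values rest on counts near the floor. The same RT-112 libraries enter the values over 24 libraries, so the order of EHMT1 and CYTH3 there rests in part on them. The libraries share groups and sequencing, and the best of so many genes is high by selection, so these values are descriptions.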

How the data were processed

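The file deposited by the authors lists unnormalized counts by gene symbol, 1 column for each library. The submitters' processing notes name HISAT2, StringTie and GRCh37. Their versions, the annotation and the strand setting are not given in the sources used here. Each column was matched to its sample by title. The 10 genes and the 5 lists were chosen with earlier results of these data known.

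Tests were run with edgeR 4.0.16 under R 4.3.3: filterByExpr, TMM scaling and two-sided quasi-likelihood tests with group as the only term. J82 (15951 genes tested) and RT-112 (15645) were fitted separately on 12 libraries each. The parental lines, and the difference between the lines in 5 comparisons, were fitted on all 24 libraries (17438 genes). Benjamini-Hochberg adjustment covered all genes tested in a comparison. The labels call the replicates biological without naming cultures, so p-values measure the spread between these samples. The counts of 24 replicate pairs differed beyond sampling noise (chi-square over its degrees of freedom 6.03 to 58.7). With 16752825 to 24419670 counts per library, counting error is largest for ABCC2 and, in RT-112, for ABCB1 and ATP7B. The lowest J82 counts of ABCG2, ATP7A and ATP7B were 107, 116 and 106, so counting error is not negligible for these genes either.

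From the lists, a gene was named if both lines called it in 1 direction, or when it had the largest increase or decrease in CD44 High or CD44v6 against CD44 Low; others are said to be named after their values were seen. Some list genes counted among the called are not reported here by name. Simulated counts in which 200 genes were changed served to check the fits. The alternatives were other scalings, no filter, a mean of at least 50 counts, DESeq2 1.42.0, a replicate block, fits restricted to the 2 groups or widened to all 24 libraries, leaving out each library, and, added after seeing the data, J82 replicates 1 and 2 only. Pairing of equal replicate numbers was checked by correlating deviations from group means. In 1 of 13 comparisons (J82 CD44v6 against CD44 High: 0.11, 0.11 and 0.25) every correlation was over 0.1, a pairing from the data and not the labels. J82 CD44 High against CD44 Low gave 0.038, 0.11 and 0.23, and J82 CD44v6 against CD44 Low 0.057, 0.076 and 0.38. The last value of each is replicate 3. RT-112 CD44v6 against CD44 High gave -0.069, -0.059 and -0.31. Promoter windows came from RefSeq (GRCh38.p14), exon lengths and overlapping genes from GENCODE 29. Plots used matplotlib 3.10.9 (Python 3.11.15).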

Additional observations from a re-analysis of the deposited data

Results flagged for a closer look

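A total of 5 tests of the difference between the lines passed, each as the J82 change minus the RT-112 change on all 24 libraries (edgeR quasi-likelihood test, Benjamini-Hochberg adjustment). For ABCG2 the differences were -1.28 in CD44 Low against parental (adjusted p = 0.0164), and with CD44 Low as base 1.63 in CD44 High (adjusted p = 0.000402) and 1.25 in CD44v6 (adjusted p = 0.00581). The J82 and RT-112 changes behind them were -0.58 and 0.67, 0.82 and -0.78, and 0.43 and -0.83, of which -0.58 (adjusted p = 0.143) and 0.43 (adjusted p = 0.265) did not pass. For GSTP1 the difference was 0.58 in CD44 High relative to CD44 Low (adjusted p = 0.0135), from 0.54 in J82 and -0.01 in RT-112. For ERCC1 it was -0.51 in CD44v6 against CD44 Low (adjusted p = 0.0341), from -0.47 and 0.03. What sets the lines apart was not tested.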

How the results depend on the processing

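No result for a member changed direction while called, under any alternative or any left-out library. Among the alternatives other than leaving out a library, 1329 gene results kept their side of the threshold, 22 lost it and 16 passed it anew; among fits without 1 library the numbers were 1281, 53 and 10. Counts of the 10 genes called moved most in the J82 contrasts. Without a filter, J82 CD44 High against CD44 Low gave 4 and the difference between lines for CD44v6 against CD44 Low 1. DESeq2 gave 4 in J82 CD44 Low against parental, 2 in RT-112 CD44 Low against parental and 1 in the difference for CD44v6 against parental. Fits on the 2 groups compared gave 4, 2, 4 and 1 in J82 CD44 Low against parental, CD44 High against parental, CD44 High against CD44 Low, and CD44v6 relative to CD44 Low, and 2 and 1 in RT-112 CD44 Low and CD44v6 against parental. The fit on all 24 libraries, and J82 replicates 1 and 2 only, both gave 0 in J82 CD44 High and CD44v6 against parental; the latter, chosen after seeing the data, also gave 1 in J82 CD44v6 against CD44 Low and 1 in the difference for CD44v6 against parental. The replicate block gave 2 in J82 CD44 Low against parental (ATP7B added), lost ABCC1 in J82 CD44 High against CD44 Low, where 6 were called, and changed no other member's call; the numbers pair the samples by the data in 1 comparison only. The causes were not tested. Without 1 library, the counts ran from 1 to 4 in J82 CD44 Low against parental, 0 to 1 in CD44v6 against parental, 3 to 6 in CD44 High against CD44 Low and 1 to 6 in CD44v6 relative to it. In RT-112 they ran from 0 to 1 in CD44 Low against parental and from 2 to 3 in both contrasts with CD44 Low, and in the differences between lines from 0 to 1 in CD44 Low against parental and 1 to 2 in CD44v6 against CD44 Low. They stayed at 1 in J82 CD44 High against parental, at 8 between the parental lines and at 2 in the difference for CD44 High against CD44 Low. Depth limits ABCC2 (0 to 49 counts) and ABCB1 in RT-112 (0 to 12 counts).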
